A study of Mus musculus with 8 samples.

Results

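Transcripts of 36 glycolysis and hypoxia response genes were followed in mouse peritoneal macrophages kept in culture untreated or given recombinant histidine-rich glycoprotein. That protein, HRG for short, circulates in plasma and binds heparan sulphate and haem. The list holds 14 glycolytic enzymes, 3 regulators of glycolytic flux, 2 carriers of glucose and lactate, 5 oxygen-dependent dioxygenases, 4 mitochondrial response genes and 8 other hypoxia response genes. A gene counted as measured if an array row carried its symbol alone, and where several rows did, the brightest of them on average over the 8 arrays stood for the gene. By this rule 33 of the 36 genes were measured, among 19938 genes tested in all. Gpi1 and Eno1 had no row named here, and Gapdh stood only on 25 rows that carried several symbols.

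The cells came from the peritoneal lavage of wild-type C57/Bl6 mice, those of 10 mice were pooled, and all of them spent a night in RPMI medium with 5% FCS before the treatment. The 4 groups were untreated (basal) cells at 6 h, cells given HRG at 1 µg/ml for 6 h, basal cells at 24 h and cells given HRG at 1 µg/ml for 24 h. Each group had 2 samples, with 1 Affymetrix array apiece, and expression is given as log2 levels. Because all samples came from 1 pool and nothing states that the duplicates were separate cultures, p-values speak only of the spread among these samples, and that spread may be technical.

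Glycolysis splits glucose into pyruvate and yields ATP without oxygen, and lactate dehydrogenase then turns pyruvate into lactate. When oxygen is low, prolyl hydroxylases can no longer mark the HIF alpha subunits for destruction, and the HIF transcription factors switch on glucose carriers, most glycolytic enzymes, a kinase that keeps pyruvate out of mitochondria, mitophagy receptors and the prolyl hydroxylases themselves. Macrophages are known to lean on this programme in poorly supplied tissue and when they are activated.

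HIF binds short sites with the core letters ACGTG or GCGTG, so the promoters of the members were searched for those letters. Promoter windows came from RefSeq (assembly GRCm38.p6) and ran from 250 bases before each annotated start to 50 bases after it. They matched 31 of the 33 measured members by symbol, with 46 windows in all, some of which overlap within 1 gene, while Bnip3l and Ndrg1 had no entry. On either strand, 37 of the 46 windows (80.4%) held ACGTG or GCGTG, against 43.8% of the 32851 windows in the table. ACGTG alone was found in 26 member windows (56.5%) and in 19.6% of all windows. The member windows also had a higher mean GC content, at 63.9% against 53.8%, and both motifs are rich in G and C. The list was made of glycolysis and hypoxia response genes, many of which HIF is known to switch on. An excess of these letters may therefore follow from that choice, and it was not tested. Tpi1 and Gys1 held neither motif in the windows searched. The 250 upstream bases are shown for the 4 genes with the largest mean rise over culture time, Aldoc (chr11:78322823-78323072, plus strand), Pdk1 (chr2:71872974-71873223, plus strand), Ankrd37 (chr8:45999851-46000100, minus strand) and Pfkl (chr10:78009808-78010057, minus strand), and for Bnip3 (chr7:138909507-138909756, minus strand) and Ldha (chr7:46845554-46845803, plus strand), each of which had 5 matches. They are written 5′ to 3′ on the strand of the gene, and capitals mark every ACGTG or GCGTG on either strand, so the reverse complements are in capitals too. A capital run longer than a single motif holds matches on both strands that overlap:
Aldoc: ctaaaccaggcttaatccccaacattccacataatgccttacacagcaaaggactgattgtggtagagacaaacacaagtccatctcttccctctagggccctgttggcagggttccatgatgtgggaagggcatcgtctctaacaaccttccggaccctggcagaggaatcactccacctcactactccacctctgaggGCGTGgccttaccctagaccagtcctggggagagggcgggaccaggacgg
Pdk1: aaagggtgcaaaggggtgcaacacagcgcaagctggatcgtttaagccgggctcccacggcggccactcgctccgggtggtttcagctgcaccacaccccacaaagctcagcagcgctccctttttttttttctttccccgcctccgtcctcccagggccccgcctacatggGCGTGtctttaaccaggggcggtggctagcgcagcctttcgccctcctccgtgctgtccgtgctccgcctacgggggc
Ankrd37: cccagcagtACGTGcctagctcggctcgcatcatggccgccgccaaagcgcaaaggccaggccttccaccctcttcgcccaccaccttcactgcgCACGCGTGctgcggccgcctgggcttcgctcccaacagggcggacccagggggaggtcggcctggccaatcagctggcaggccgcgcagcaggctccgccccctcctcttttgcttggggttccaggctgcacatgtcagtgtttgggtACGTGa
Pfkl: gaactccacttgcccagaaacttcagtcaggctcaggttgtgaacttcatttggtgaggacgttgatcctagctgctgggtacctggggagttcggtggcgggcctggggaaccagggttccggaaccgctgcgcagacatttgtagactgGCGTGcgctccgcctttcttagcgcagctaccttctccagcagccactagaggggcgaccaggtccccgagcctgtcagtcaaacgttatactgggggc
Bnip3: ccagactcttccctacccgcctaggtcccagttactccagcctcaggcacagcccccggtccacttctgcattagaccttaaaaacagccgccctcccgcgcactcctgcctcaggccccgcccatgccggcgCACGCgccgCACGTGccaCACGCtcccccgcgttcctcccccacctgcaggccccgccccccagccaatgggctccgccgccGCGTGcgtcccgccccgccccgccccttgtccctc
Ldha: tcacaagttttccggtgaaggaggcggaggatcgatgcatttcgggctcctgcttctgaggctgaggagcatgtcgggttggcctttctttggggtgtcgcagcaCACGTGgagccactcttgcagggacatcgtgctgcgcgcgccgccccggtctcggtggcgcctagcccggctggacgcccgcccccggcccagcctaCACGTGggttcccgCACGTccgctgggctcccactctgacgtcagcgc
A match describes the letters of the window only, and factor binding was not measured.

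The 8 arrays had medians between 7.18 and 7.29, and the duplicates correlated at r = 0.996 to 0.998 over all array rows, which are not independent. Macrophage markers were all measured (10 of 10). Their levels were summed on the linear scale, where the brightest markers weigh most, and the log2 of the sum was 15.83 to 16.14 over the 8 arrays. For B cell markers (7 of 8 measured) the log2 of the sum was 11.17 to 12.16. In such bulk samples, fewer cells of a type and less RNA per cell cannot be told apart.

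With culture time most of the members passed the threshold, and with HRG few did. The list was chosen with earlier results of these data known. Here and below, the shares of all genes beside its counts are therefore a description, and the list itself was not tested. Between 6 h and 24 h, 26 of the 33 members rose and 1 fell in basal cells, against 3.80% and 5.48% of all genes tested. In HRG-treated cells 22 rose, against 4.41% of all genes, and 0 fell, against 2.87%, and at an unadjusted p under 0.05 the number that fell was also 0, against 9.22% of all genes. At that unadjusted threshold 27 members were higher at 24 h in basal cells (9.23% of all genes) and 30 with HRG (9.67%). The median difference of the members was 0.59 on the log2 scale in basal cells and 0.54 in HRG-treated cells, where that of all genes was 0.03 and -0.02. With HRG, 1 member fell at 6 h, Ndrg1 (0.818% of all genes), and 0 rose (0.431%). At 24 h 1 rose, Aldoc (2.43%), and 0 fell (1.05%). These calls are from limma with Benjamini-Hochberg adjustment over all genes tested, at an adjusted p under 0.05, and "rose" and "fell" are used only for such calls. At an unadjusted p under 0.05, 11 members were higher with HRG at 6 h (4.73% of all genes) and 3 lower (6.27%). At 24 h 7 were higher (7.48%) and 5 lower (5.22%) by that threshold.

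**Figure D1:**
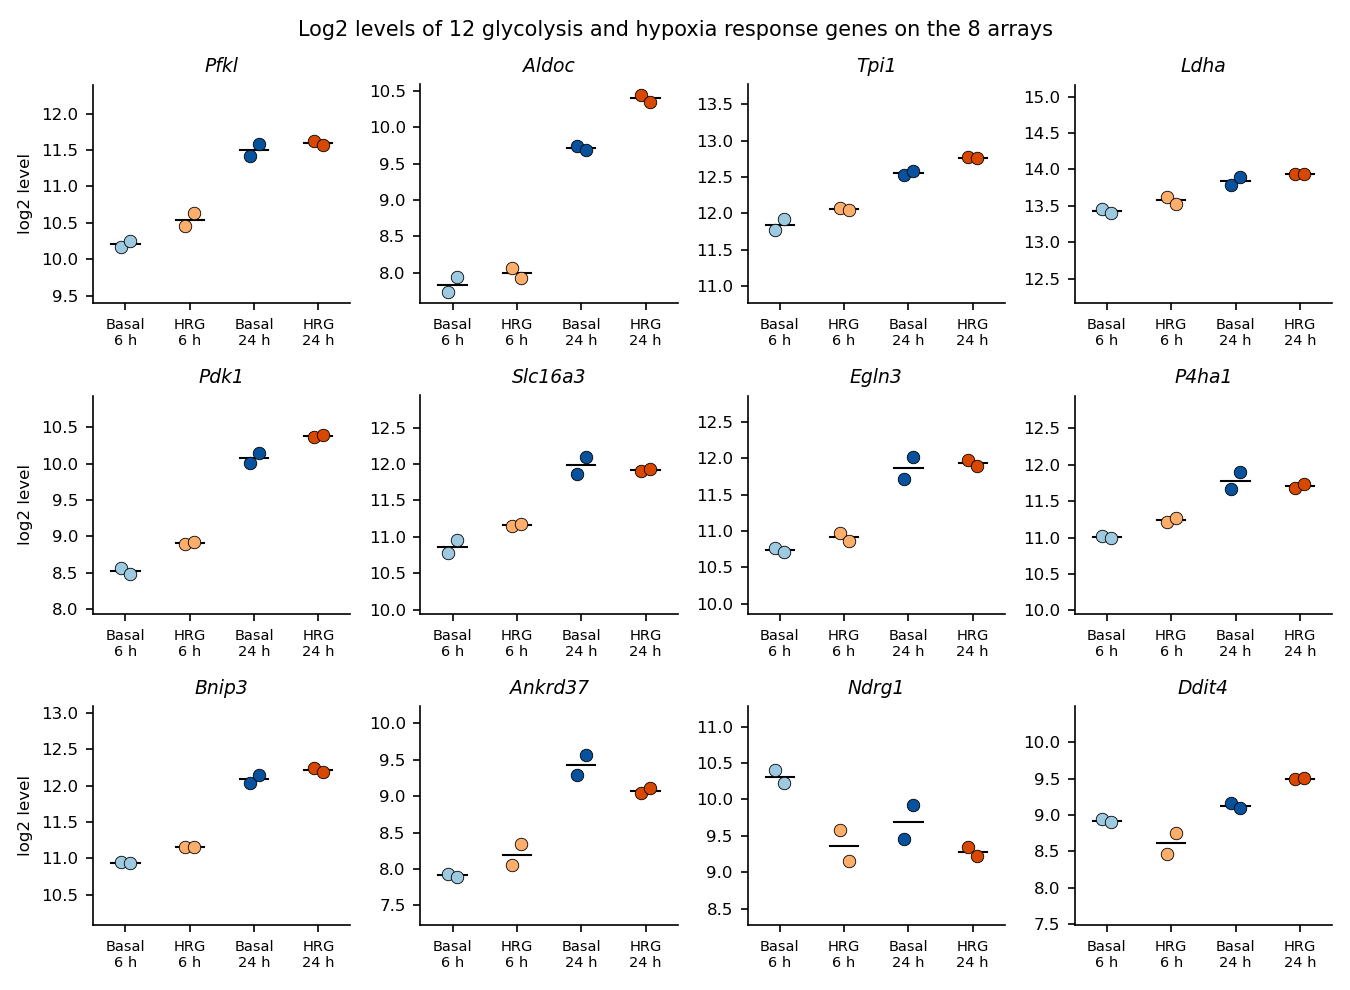
Log2 level (vertical axis) of 12 members on each of the 8 arrays, by group (horizontal axis), with each point 1 array and each line the mean of 2. For Pfkl, Aldoc, Pdk1 and Bnip3 every 24 h array lies above every 6 h array, and for Ndrg1 the basal 6 h arrays (10.40 and 10.22) lie highest.

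The comparison of 24 h with 6 h shows what happened to these genes as the cells stayed in culture, separately without and with HRG. The 2 arms share no arrays, though 1 estimate of spread was fitted to all 8. In 29 of the 33 members every 24 h array lay above every 6 h array, a pattern that 7.74% of all genes had. The exceptions were Hk1, Pfkfb4, Ndrg1 and Car9, and 0 members had the reverse order, which 7.03% of all genes had. In all, 21 members rose in both arms, against 1.91% of all genes.

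Among the glycolytic enzymes, 10 of the 11 measured rose with time in basal cells and 8 rose in HRG-treated cells, with median differences of 0.57 and 0.38. The largest rise was that of Aldoc, aldolase C, a fructose bisphosphate aldolase best known from brain. Aldoc read 7.73 and 7.94 in basal cells and 8.06 and 7.93 in HRG-treated cells at 6 h, then 9.74 and 9.69 in basal and 10.44 and 10.35 in HRG-treated cells at 24 h. All 24 h arrays stood more than a log2 unit above all 6 h arrays, and at 24 h both HRG arrays stood above both basal arrays. Aldoc rose 3.69-fold in basal cells (1.88 ± 0.10, log2 difference ± SE, adjusted p = 1.7e-06) and 5.27-fold in HRG-treated cells (2.40 ± 0.10, adjusted p = 7.2e-07). Its paralogue Aldoa, the common aldolase, rose 1.27-fold in basal cells (0.35 ± 0.091, adjusted p = 0.033) and differed by 0.21 ± 0.091 in HRG-treated cells (adjusted p = 0.24). The promoter of Aldoc printed above holds 1 GCGTG.

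Pfkl, the liver-type phosphofructokinase, which catalyses the committed step of glycolysis, also rose in both arms. It read 10.17 and 10.25 in basal and 10.46 and 10.63 in HRG-treated cells at 6 h, then 11.42 and 11.58 in basal and 11.63 and 11.57 in HRG-treated cells at 24 h. The 2 arms stood apart at 6 h and overlapped at 24 h, the reverse of Aldoc, and every 24 h array stood above every 6 h array. The rise was 2.45-fold in basal cells (1.29 ± 0.10, adjusted p = 2.0e-05) and 2.08-fold in HRG-treated cells (1.06 ± 0.10, adjusted p = 9.5e-05). The platelet-type isoform Pfkp rose by 0.43 ± 0.10 in basal cells (adjusted p = 0.018) and by 0.55 ± 0.10 with HRG (adjusted p = 0.0057). Pfkl and Pfkp thus rose in both arms, and the difference between the isoforms was not tested.

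Hexokinases trap glucose in the cell as its phosphate. Hk2, the inducible isoform, read 9.46 and 9.64 in basal and 9.85 and 9.95 in HRG-treated cells at 6 h, then 10.22 and 10.27 in basal and 10.40 and 10.36 in HRG-treated cells at 24 h. Its 4 groups did not overlap, and it rose by 0.70 ± 0.099 in basal cells (adjusted p = 0.00095) and by 0.48 ± 0.099 with HRG (adjusted p = 0.012). Hk1, the widely expressed isoform, differed by -0.12 ± 0.11 in basal cells (adjusted p = 0.63) and by 0.04 ± 0.11 with HRG (adjusted p = 0.92). The row that stands for Hk1 rests on 1 database entry, which all 16 rows annotated jointly to Rpl17 and Hk1 list as well, so its signal may not be that of Hk1. The other row of Hk1 differed by 0.35 in basal cells (p adjusted over array rows 0.049) and by 0.27 with HRG (p adjusted over array rows 0.14), and was looked at after the data were seen.

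Tpi1, triose phosphate isomerase, which interconverts the sugars that aldolase makes, rose by 0.71 ± 0.094 in basal cells (adjusted p = 0.00061) and by 0.70 ± 0.094 with HRG (adjusted p = 0.00084), from means of 11.85 ± 0.11 and 12.06 ± 0.018 (SD, n = 2) to 12.56 ± 0.033 and 12.76 ± 0.0030. Pgam1, phosphoglycerate mutase, rose by 0.57 ± 0.10 in basal cells (adjusted p = 0.0035) and by 0.38 ± 0.10 with HRG (adjusted p = 0.041). Pgk1, phosphoglycerate kinase, rose by 0.39 ± 0.095 (adjusted p = 0.022) and 0.38 ± 0.095 (adjusted p = 0.030). All of these rises were under 2-fold. Pkm, pyruvate kinase, rose by 0.57 ± 0.095 in basal cells (adjusted p = 0.0025) and differed by 0.34 ± 0.095 with HRG, which missed the threshold (adjusted p = 0.051). Ldha, which makes lactate, read 13.46 and 13.40 in basal and 13.62 and 13.53 in HRG-treated cells at 6 h, then 13.78 and 13.90 in basal and 13.93 on both HRG arrays at 24 h. Every 24 h array of Ldha was above every 6 h array, by a small margin at a bright signal, and the rise was 1.33-fold in basal cells (0.41 ± 0.094, adjusted p = 0.016) and 1.28-fold with HRG (0.35 ± 0.094, adjusted p = 0.042). The 250 upstream bases of Ldha printed above hold 5 matches, all ACGTG, and the rest of that window holds further GCGTG.

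Of the regulators of flux, 2 of 3 rose in each arm, with medians of 0.44 and 0.54. Pdk1, the kinase that inactivates pyruvate dehydrogenase and so holds pyruvate back from mitochondria, read 8.56 and 8.48 in basal and 8.90 and 8.92 in HRG-treated cells at 6 h. At 24 h it read 10.01 and 10.14 in basal and 10.37 and 10.39 in HRG-treated cells. The 4 groups of Pdk1 did not overlap, and time separated them more than HRG did. Pdk1 rose 2.94-fold in basal cells (1.56 ± 0.094, adjusted p = 3.1e-06) and 2.77-fold with HRG (1.47 ± 0.094, adjusted p = 7.6e-06). Pfkfb3 and Pfkfb4 make and break the sugar phosphate that activates phosphofructokinase. Pfkfb3 rose by 0.44 ± 0.10 in basal cells (adjusted p = 0.018) and by 0.54 ± 0.10 with HRG (adjusted p = 0.0067), while Pfkfb4 differed by 0.00 ± 0.094 (adjusted p = 1.0) and 0.24 ± 0.094 (adjusted p = 0.18).

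Both carriers rose in basal cells and 1 of them rose with HRG. Slc16a3, the lactate exporter of glycolytic cells, read 10.78 and 10.95 in basal and 11.15 and 11.18 in HRG-treated cells at 6 h, then 11.86 and 12.10 in basal and 11.91 and 11.93 in HRG-treated cells at 24 h. The 2 arms stood apart at 6 h and overlapped at 24 h, and Slc16a3 rose by 1.12 ± 0.11 in basal cells (adjusted p = 6.8e-05) and by 0.75 ± 0.11 with HRG (adjusted p = 0.0012). Slc2a1, the glucose carrier GLUT1, rose by 0.59 ± 0.096 in basal cells (adjusted p = 0.0021) and differed by 0.27 ± 0.096 with HRG (adjusted p = 0.13).

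The dioxygenases use oxygen as a substrate, and 4 of 5 rose in basal cells and 3 with HRG, with medians of 0.77 and 0.47. Egln1 and Egln3 are the prolyl hydroxylases that mark HIF alpha subunits and are themselves HIF targets. Egln3 read 10.76 and 10.71 in basal and 10.97 and 10.86 in HRG-treated cells at 6 h, then 11.71 and 12.01 in basal and 11.98 and 11.89 in HRG-treated cells at 24 h. Its 24 h arrays overlapped between arms and all stood above the 6 h arrays, with rises of 1.12 ± 0.11 (2.17-fold, adjusted p = 9.3e-05) and 1.02 ± 0.11 (2.03-fold, adjusted p = 0.00021). Egln1 rose by 0.92 ± 0.11 (adjusted p = 0.00023) and 0.77 ± 0.11 (adjusted p = 0.00098). P4ha1 and P4ha2 are catalytic subunits of the collagen prolyl hydroxylase. P4ha1 rose by 0.77 ± 0.10 in basal cells (adjusted p = 0.00061) and by 0.47 ± 0.10 with HRG (adjusted p = 0.016). P4ha2 rose by 0.74 ± 0.16 in basal cells (adjusted p = 0.011), where the 24 h arrays lay far apart at 9.20 and 9.81, and differed by 0.40 ± 0.16 with HRG (adjusted p = 0.18). Kdm3a, a histone demethylase, differed by 0.30 ± 0.10 (adjusted p = 0.094) and 0.29 ± 0.10 (adjusted p = 0.12), although all 4 of its 24 h arrays lay above its 6 h arrays.

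**Figure D2:**
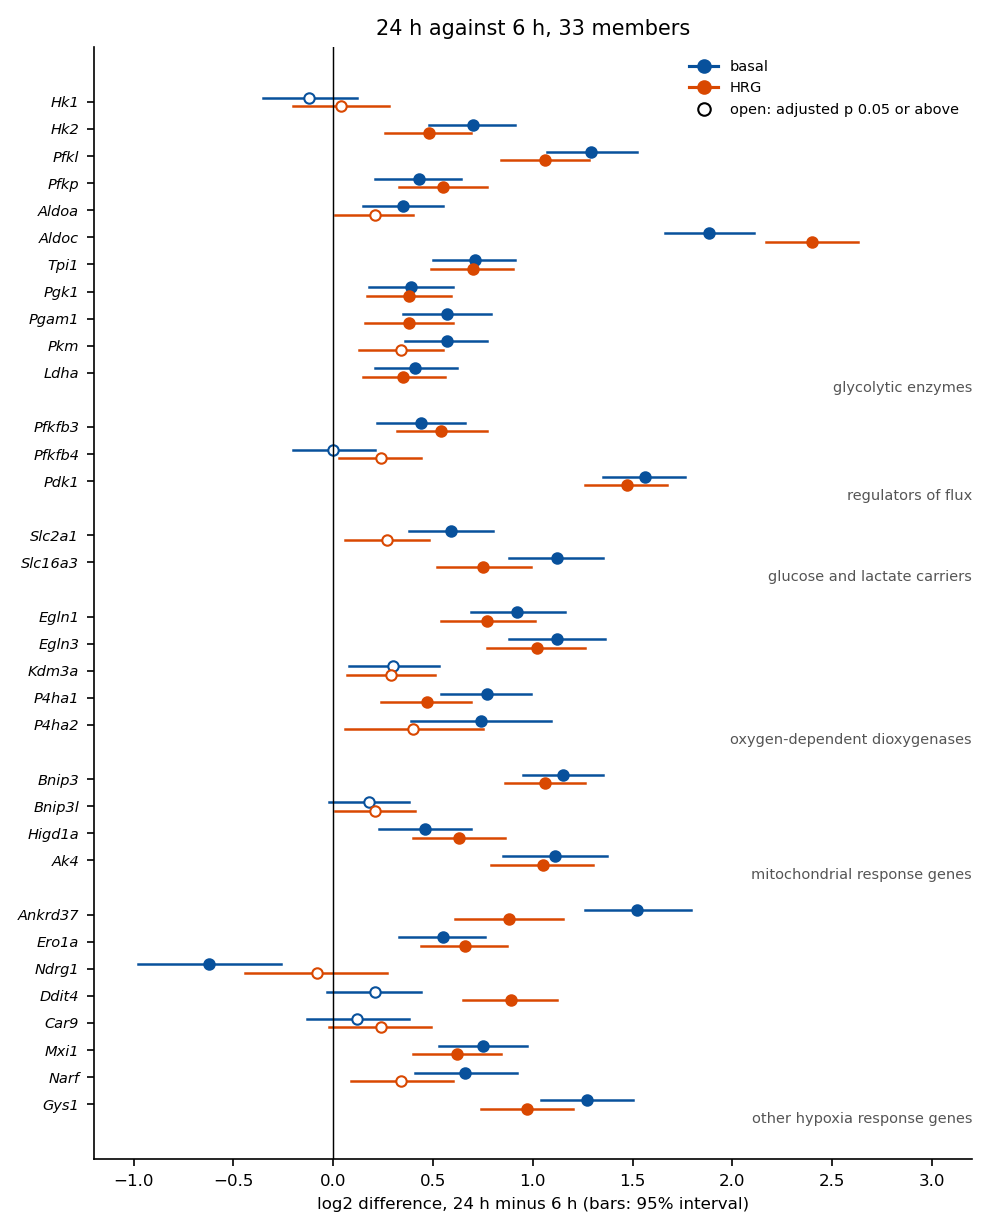
Log2 difference between 24 h and 6 h (horizontal axis) with its 95% interval for the 33 measured members, grouped by role, in basal cells (blue) and HRG-treated cells (orange). Filled points passed an adjusted p of 0.05, and Aldoc lies farthest to the right, at 1.88 and 2.40.

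Of the mitochondrial response genes, 3 of 4 rose in each arm, with medians of 0.79 and 0.84. Bnip3, a receptor that targets mitochondria for mitophagy, read 10.95 and 10.93 in basal and 11.16 on both HRG arrays at 6 h, then 12.04 and 12.14 in basal and 12.24 and 12.19 in HRG-treated cells at 24 h. Its duplicates lay close together and its 4 groups did not overlap, with rises of 2.22-fold in basal cells (1.15 ± 0.091, adjusted p = 2.0e-05) and 2.08-fold with HRG (1.06 ± 0.091, adjusted p = 5.0e-05). The paralogue Bnip3l, also a mitophagy receptor, differed by 0.18 ± 0.090 (adjusted p = 0.30) and 0.21 ± 0.090 (adjusted p = 0.23). Ak4, a mitochondrial adenylate kinase, rose by 1.11 ± 0.12 (adjusted p = 0.00013) and 1.05 ± 0.12 (adjusted p = 0.00023), and Higd1a, a protein of the inner mitochondrial membrane, by 0.46 ± 0.10 (adjusted p = 0.015) and 0.63 ± 0.10 (adjusted p = 0.0034). The Bnip3 promoter above holds 2 ACGTG and 3 GCGTG.

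The 8 other hypoxia response genes moved in both directions: 5 rose in each arm and 1 fell in basal cells, with medians of 0.60 and 0.64. Ankrd37, an ankyrin repeat protein known as a HIF target, read 7.93 and 7.89 in basal and 8.05 and 8.34 in HRG-treated cells at 6 h, then 9.29 and 9.57 in basal and 9.04 and 9.11 in HRG-treated cells at 24 h. The HRG arrays of Ankrd37 stood above the basal arrays at 6 h and below them at 24 h. Ankrd37 rose 2.87-fold in basal cells (1.52 ± 0.12, adjusted p = 2.0e-05) and 1.84-fold with HRG (0.88 ± 0.12, adjusted p = 0.0010). Gys1, the glycogen synthase of most tissues outside liver, rose by 1.27 ± 0.11 (2.41-fold, adjusted p = 2.3e-05) and 0.97 ± 0.11 (1.96-fold, adjusted p = 0.00020). Its promoter windows held neither motif, and a link between motif and rise was not tested. Mxi1, an antagonist of MYC, rose by 0.75 ± 0.10 (adjusted p = 0.00070) and 0.62 ± 0.10 (adjusted p = 0.0032), and Ero1a, the oxidase that forms disulphide bonds in the endoplasmic reticulum, by 0.55 ± 0.099 (adjusted p = 0.0042) and 0.66 ± 0.099 (adjusted p = 0.0016). Narf rose by 0.66 ± 0.12 in basal cells (adjusted p = 0.0034) and differed by 0.34 ± 0.12 with HRG (adjusted p = 0.11). Car9, a carbonic anhydrase at the cell surface and a classical hypoxia marker, read between 6.63 and 7.06 on all 8 arrays and differed by 0.12 ± 0.12 (adjusted p = 0.64) and 0.24 ± 0.12 (adjusted p = 0.32).

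Ddit4 and Ndrg1 took other courses. Ddit4, also called REDD1, an inhibitor of the growth kinase complex mTORC1, read 8.94 and 8.90 in basal and 8.47 and 8.76 in HRG-treated cells at 6 h, then 9.16 and 9.10 in basal and 9.49 and 9.51 in HRG-treated cells at 24 h. HRG arrays were the lowest at 6 h and the highest at 24 h, so that Ddit4 rose with HRG (0.89 ± 0.11, 1.85-fold, adjusted p = 0.00039) and differed by 0.21 ± 0.11 in basal cells (adjusted p = 0.32). Ndrg1, a stress-induced gene that hypoxia is known to raise, read 10.40 and 10.22 in basal and 9.58 and 9.15 in HRG-treated cells at 6 h, then 9.45 and 9.92 in basal and 9.34 and 9.22 in HRG-treated cells at 24 h. The basal 6 h arrays of Ndrg1 were higher than the other 6, which overlapped. Ndrg1 fell with time in basal cells (-0.62 ± 0.16, 1.54-fold lower, adjusted p = 0.034) and differed by -0.08 ± 0.16 with HRG (adjusted p = 0.88). The fall of Ndrg1 was not called without basal 6 h replicate 1 (-0.53, adjusted p = 0.17), basal 24 h replicate 1 (-0.38, adjusted p = 0.28) or either HRG 24 h array (-0.62, adjusted p = 0.056), nor when every array row was tested (adjusted p = 0.063).

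Each array was left out in turn. Of the 27 calls in basal cells 19 held each time, and of the 22 calls with HRG 14 did. In basal cells Aldoa was not called without any 1 of the 8 arrays (0.30 to 0.39, adjusted p = 0.052 to 0.18), and Pgk1 without any 1 of the 4 basal arrays (0.36 to 0.42, adjusted p = 0.051 to 0.13). Pfkp was not called without basal 6 h replicate 1 (0.39) or basal 24 h replicate 2 (0.33), nor Ldha (0.38 and 0.35) or P4ha2 (0.66 and 0.44) without basal 6 h replicate 2 or basal 24 h replicate 2. Pfkfb3 was not called without basal 6 h replicate 2 (0.40) or basal 24 h replicate 1 (0.39), nor Higd1a without basal 6 h replicate 2, basal 24 h replicate 1 or basal 24 h replicate 2 (adjusted p = 0.055 to 0.089). With HRG, Hk2 (0.43 to 0.53), Pgk1 (0.32 to 0.44), Pgam1 (0.30 to 0.46), Ldha (0.31 to 0.40) and P4ha1 (0.44 to 0.50) were not called without any 1 of the 4 HRG arrays. Pfkp was not called without HRG 6 h replicate 2 (0.53) or HRG 24 h replicate 2 (0.50), Pfkfb3 without HRG 6 h replicate 1 (0.49) or HRG 24 h replicate 1 (0.45), and Higd1a without HRG 6 h replicate 2 (0.51). Against a minimum change of 1.2-fold, 14 members rose in basal cells, 12 rose with HRG and 11 in both.

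Several members are read by more than 1 array row, some of which may sit on processed copies elsewhere in the genome, so the values of Pgk1, Pgam1, Pkm, Bnip3, Bnip3l, Higd1a and Ak4 are less certain. The rows not used gave basal differences of 0.38 for Pgk1, 0.60 for Pgam1, 0.53 for Pkm, 1.23 for Bnip3, 0.23 for Bnip3l, 0.56 for Higd1a and 0.67 for Ak4. With HRG the row of Pkm not used gave 0.16 and that of Ak4 0.64, where the rows used gave 0.34 and 1.05. All of them pointed the same way as the rows used. The 3 Pgk1 rows had the same mean level (12.93), so some rows may read the same signal. Their agreement is then no independent support.

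**Figure D3:**
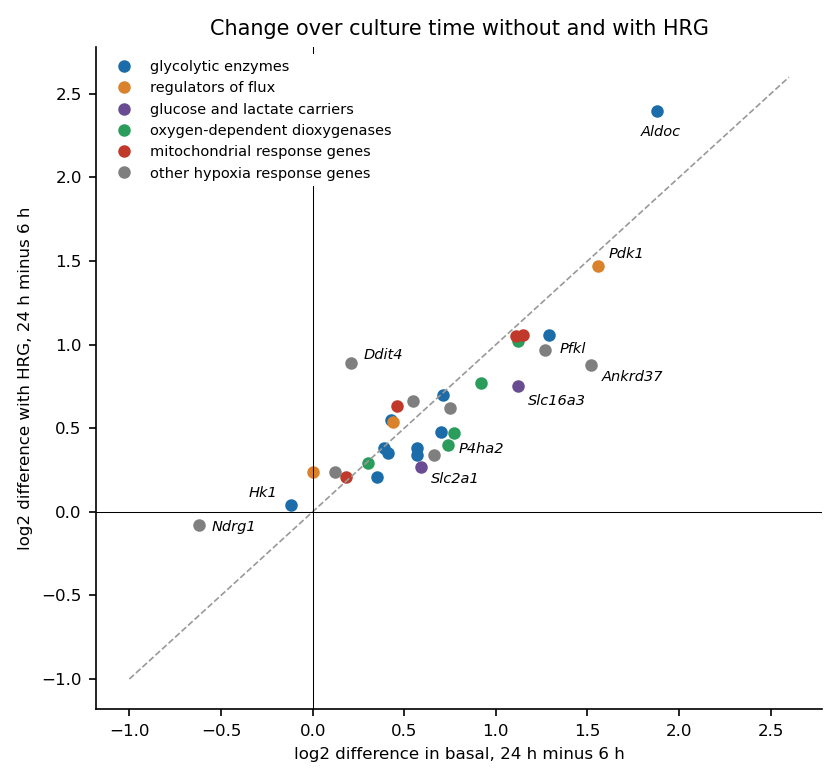
Log2 difference between 24 h and 6 h in basal cells (horizontal axis) against that in HRG-treated cells (vertical axis), 1 point per measured member, coloured by role, with the line of equal change dashed. Aldoc and Ddit4 lie above the line and Ankrd37 below it, and the 33 points correlate at r = 0.851.

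Over the 33 members the differences in the 2 arms, which come from separate arrays, correlated at Pearson r = 0.851 and Spearman rho = 0.825, where over all 19938 genes r was 0.513, and these are descriptions over genes. By the mean of both arms, Aldoc (2.14), Pdk1 (1.51), Ankrd37, Pfkl (1.18), Gys1 (1.12), Bnip3 (1.11), Ak4 (1.08) and Egln3 (1.07) led the order, and Hk1 (-0.04) and Ndrg1 (-0.35) closed it. The log2 difference between 24 h and 6 h, called or not, was above 0 in both arms for 31 members. Of all 19938 genes it was above 0 for 11344 in basal cells and for 8869 with HRG. It was higher in basal cells for 22 members and higher with HRG for 11, against 11318 and 8620 of all genes. That contrast between the arms, which equals the HRG effect at 24 h minus that at 6 h, passed the test for 0 of 33 members, against 1.02% of all genes in the positive and 0.451% in the negative direction. At an unadjusted p under 0.05, it was positive for 3 members (6.67% of all genes) and negative for 3 (4.35%). So Aldoa, Pkm, Slc2a1, P4ha2 and Narf, which rose in basal cells alone, and Ddit4, which rose with HRG alone, were not shown to differ between arms.

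The largest of these arm differences belonged to Ddit4, Ankrd37, Ndrg1 and Aldoc. For Ddit4 it was 0.68 ± 0.15 (adjusted p = 0.051). Of 18 alternative settings it passed in 5, among them median centring and the dimmest 30% of genes dropped. In the other 13 it did not pass (largest adjusted p = 0.52). With each array left out in turn, the difference of Ddit4 was 0.54 to 0.82. For Ankrd37 it was -0.64 ± 0.17 (adjusted p = 0.11), and it passed without basal 24 h replicate 1. For Ndrg1 it was 0.54 ± 0.23 (adjusted p = 0.42), for Aldoc 0.51 ± 0.15 (adjusted p = 0.14) and for Slc16a3 -0.36 ± 0.15 (adjusted p = 0.39). The standard errors of this contrast were 0.13 to 0.23, and the 95% interval lay within 1.5-fold of no difference for 23 of the 33 members.

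At 6 h the comparison of HRG with basal cells asked for an early effect of the protein on these genes. Ndrg1 was the member that passed, and it fell 1.92-fold (-0.94 ± 0.16, adjusted p = 0.020), from 10.31 ± 0.13 to 9.36 ± 0.30. Both HRG arrays, at 9.58 and 9.15, lay below both basal arrays. This call and the fall of Ndrg1 with time rest on the same 2 basal 6 h arrays. The call at 6 h was lost without basal 6 h replicate 1 (-0.85, adjusted p = 0.11), without HRG 6 h replicate 2 (-0.73, adjusted p = 0.22) and when every array row was tested (adjusted p = 0.056).

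The other 32 members did not pass at 6 h. A difference above 0 was found for 22 of the 33, against 11189 of all 19938 genes, and the median was 0.13 where that of all genes was 0.02. At an unadjusted p under 0.05, 11 members were higher with HRG (4.73% of all genes) and 3 lower (6.27%). The largest positive differences were those of Pdk1 (0.39 ± 0.094, adjusted p = 0.081) and Mxi1 (0.39 ± 0.10, adjusted p = 0.11), and in both genes the 2 HRG arrays lay above the 2 basal arrays. The largest negative ones after Ndrg1 were Ero1a (-0.38 ± 0.099, adjusted p = 0.11), with HRG arrays at 11.91 and 12.08 against 12.37 and 12.38, and Ddit4 (-0.31 ± 0.11, adjusted p = 0.27). For 29 of the 33 members the 95% interval of the HRG difference at 6 h lay within 1.5-fold of no difference, and the exceptions were Pdk1, Ero1a, Ndrg1 and Mxi1. In simulated data, 63.4% of changes of 1.5-fold and 98.6% of changes of 2-fold were called at 6 h. The simulation changed few genes, with noise independent between arrays, so these rates may not hold for the data.

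**Figure D4:**
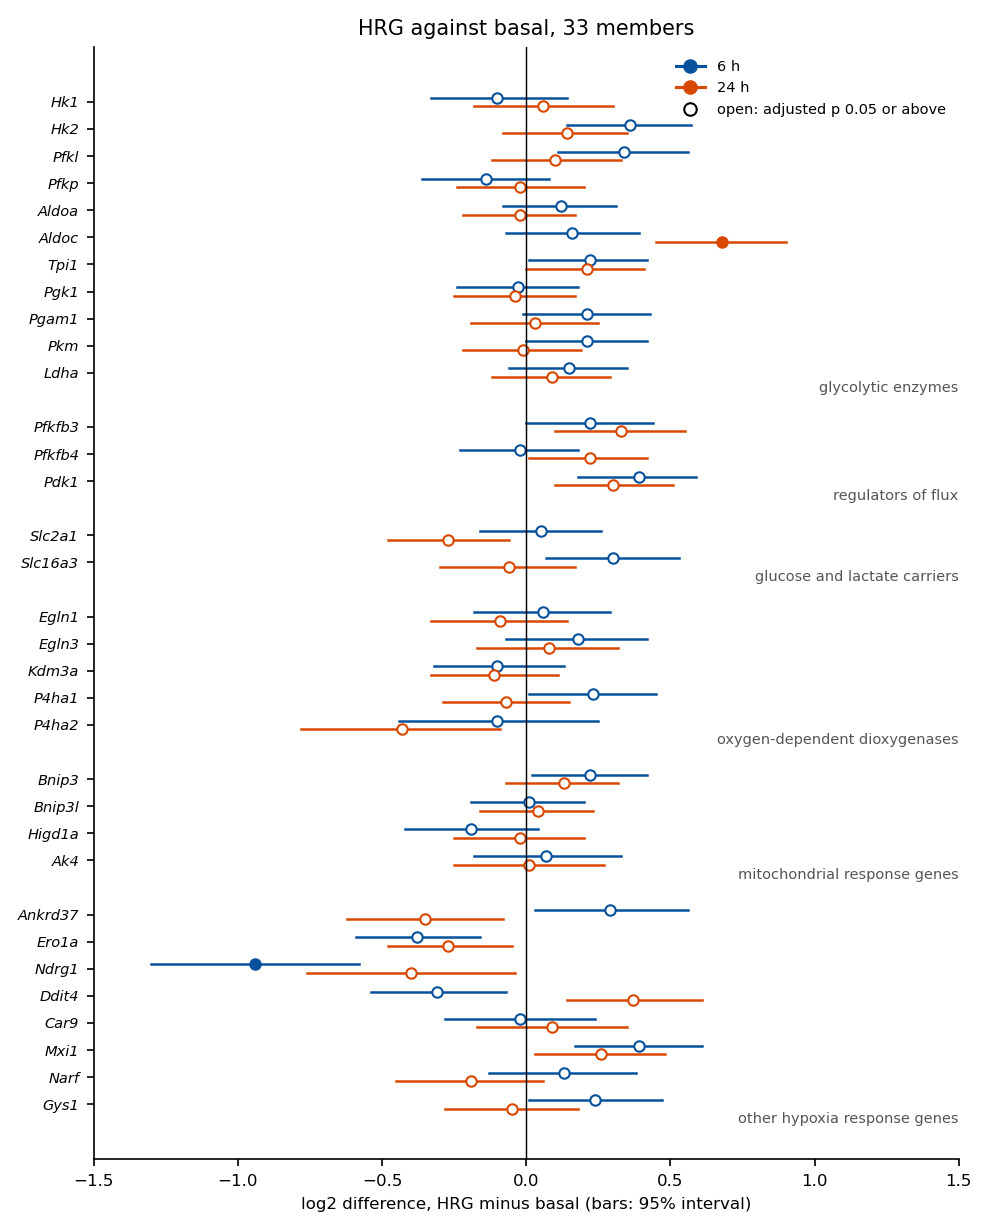
Log2 difference between HRG-treated and basal cells (horizontal axis) with its 95% interval for the 33 measured members, grouped by role, at 6 h (blue) and 24 h (orange). The 2 filled points passed an adjusted p of 0.05: Ndrg1 at 6 h (-0.94) and Aldoc at 24 h (0.68).

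At 24 h the same comparison asked what differed after longer contact. Aldoc rose 1.60-fold (0.68 ± 0.10, adjusted p = 0.0036), from 9.72 ± 0.036 in basal to 10.39 ± 0.068 in HRG-treated cells, and its arrays did not overlap. It was not called without HRG 24 h replicate 1 (0.63, adjusted p = 0.062) or against a minimum change of 1.2-fold (adjusted p = 0.090), and its HRG 24 h arrays also enter its rise with time. At 6 h the difference of Aldoc was 0.16 ± 0.10 (adjusted p = 0.65), and its HRG effects at the 2 times were not shown to differ (adjusted p = 0.14).

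The remaining 32 members did not pass at 24 h. Of the 33, 17 had differences above 0 and 16 below, against 8714 and 11224 of all 19938 genes. The median was 0.01 where that of all genes was -0.02. At an unadjusted p under 0.05, 7 members were higher (7.48% of all genes) and 5 lower (5.22%). The largest positive differences after Aldoc were Ddit4 (0.37 ± 0.11, adjusted p = 0.10) and Pfkfb3 (0.33 ± 0.10, adjusted p = 0.14), and the largest negative ones were P4ha2 (-0.43 ± 0.16, adjusted p = 0.23) and Ndrg1 (-0.40 ± 0.16, adjusted p = 0.30). P4ha2 was lower with HRG on both arrays, at 9.16 and 8.99 against 9.20 and 9.81, and Ndrg1 at 9.34 and 9.22 against 9.45 and 9.92. For 28 of the 33 members the 95% interval lay within 1.5-fold of no difference, the exceptions being Aldoc, P4ha2, Ankrd37, Ndrg1 and Ddit4. The prolyl hydroxylases Egln1 (-0.09 ± 0.11) and Egln3 (0.08 ± 0.11), the mitophagy receptors Bnip3 (0.13 ± 0.091) and Bnip3l (0.04 ± 0.090) and the hexokinases Hk1 (0.06 ± 0.11) and Hk2 (0.14 ± 0.099) were among those inside.

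Other genes of the pathway are set beside the same shares of all genes. With time the shares called are 3.80% higher and 5.48% lower in basal cells and 4.41% and 2.87% with HRG. Unadjusted counts stand against 9.23% and 11.1% in basal cells and 9.67% and 9.22% with HRG. For HRG against basal cells the shares called are 0.431% and 0.818% at 6 h and 2.43% and 1.05% at 24 h. The unadjusted shares there are 4.73% and 6.27% at 6 h and 7.48% and 5.22% at 24 h. Of 15 genes for oxygen sensing and HIF control, 0 rose and 0 fell in basal cells (2 and 1 at an unadjusted p under 0.05), and 1 rose and 0 fell with HRG (4 and 1 unadjusted), with medians of 0.02 and 0.03. With 15 genes, counts of 0 and 1 are near the shares of all genes and say nothing particular about the list. The gene that rose was Hif1a, the oxygen-regulated HIF subunit of most cells, which read 12.15 and 12.05 in basal and 12.19 and 12.25 in HRG-treated cells at 6 h, then 12.49 and 12.25 in basal and 12.63 and 12.57 in HRG-treated cells at 24 h. Its HRG arrays at 24 h were the highest, and it rose with HRG by 0.38 ± 0.10 (adjusted p = 0.046) and differed by 0.27 ± 0.10 in basal cells (adjusted p = 0.14). The call was lost without any 1 of the 4 HRG arrays (adjusted p = 0.15 to 0.26), and with renewed quantile normalization, median centring or every array row tested. With HRG 0 of the 15 passed at 6 h, and also 0 at an unadjusted p under 0.05, and 1 rose and 0 fell at 24 h (2 and 1 unadjusted). Epas1, which encodes HIF-2 alpha, rose with HRG at 24 h (0.72 ± 0.14, 1.65-fold, adjusted p = 0.013), with HRG arrays at 10.03 and 9.56 and basal arrays at 9.03 and 9.13. That call of Epas1 was lost without basal 24 h replicate 1, basal 24 h replicate 2 or HRG 24 h replicate 1 (0.48 to 0.77, adjusted p = 0.059 to 0.16).

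Of 30 measured HIF targets outside the member list, 5 rose and 3 fell with time in basal cells (9 and 4 unadjusted), and 10 rose and 2 fell with HRG (13 and 3 unadjusted). The called counts stand against 3.80% and 5.48% of all genes in basal cells and 4.41% and 2.87% with HRG. The unadjusted ones stand against 9.23% and 11.1% in basal cells and 9.67% and 9.22% with HRG. The medians were 0.04 and 0.12. Fam162a, a mitochondrial protein, rose by 0.99 ± 0.12 (adjusted p = 0.00026) and 1.07 ± 0.12 (adjusted p = 0.00020), and Nos2, the inducible nitric oxide synthase, rose by 0.77 ± 0.11 (adjusted p = 0.00074) and 0.67 ± 0.11 (adjusted p = 0.0023). Zfp395, a zinc finger protein, rose with HRG by 0.75 ± 0.11 (adjusted p = 0.0014). Vegfa, the angiogenic growth factor, rose by 0.71 ± 0.10 in each arm (adjusted p = 0.0011 and 0.0013). Lox, lysyl oxidase, fell by 1.34 ± 0.23 (adjusted p = 0.0033) and 1.05 ± 0.23 (adjusted p = 0.018), and Pdgfb, a platelet-derived growth factor chain, fell by 0.86 ± 0.13 (adjusted p = 0.0015) and 0.63 ± 0.13 (adjusted p = 0.012). With HRG, the falls of Lox and Pdgfb were not called without HRG 6 h replicate 1, HRG 24 h replicate 1 or HRG 24 h replicate 2 (adjusted p = 0.056 to 0.18 and 0.072 to 0.14).

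With HRG, 0 of these 30 HIF targets rose and 1 fell at 6 h (3 and 5 unadjusted), and 2 rose and 0 fell at 24 h (6 and 2 unadjusted). The gene that fell at 6 h was Rora, a nuclear receptor, by 0.61 ± 0.097 (adjusted p = 0.013), a call lost without basal 6 h replicate 1 or HRG 6 h replicate 2 (adjusted p = 0.072 and 0.19). Cxcr4, the receptor for the chemokine CXCL12, read 9.70 and 9.74 in basal and 9.70 and 9.72 in HRG-treated cells at 6 h, then 9.36 and 9.35 in basal and 10.31 and 10.39 in HRG-treated cells at 24 h. The groups were level at 6 h and stood apart at 24 h, where Cxcr4 rose 2.00-fold with HRG (1.00 ± 0.090, adjusted p = 0.00011), a call that held in every alternative (largest adjusted p = 0.0026). Zfp395 rose at 24 h by 0.64 ± 0.11 (adjusted p = 0.0067), and was not called without basal 24 h replicate 2 or HRG 24 h replicate 1 (adjusted p = 0.076 and 0.11).

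Of 31 other genes of glycolysis and pyruvate use, 4 rose and 2 fell with time in basal cells (6 and 3 unadjusted), and 5 rose and 0 fell with HRG (7 and 5 unadjusted), with a median of 0.05 in each arm. Slc16a7, a carrier of lactate and pyruvate, rose by 0.81 ± 0.11 (adjusted p = 0.00063) and 0.95 ± 0.11 (adjusted p = 0.00027). The pyruvate dehydrogenase kinase Pdk3 rose by 0.61 ± 0.13 (adjusted p = 0.011) and 0.96 ± 0.13 (adjusted p = 0.00087), and its call in basal cells was lost without basal 6 h replicate 2 or basal 24 h replicate 1 (adjusted p = 0.061 and 0.080). Ldhb, the lactate dehydrogenase subunit that favours pyruvate, rose by 0.56 ± 0.10 (adjusted p = 0.0045) and 0.98 ± 0.10 (adjusted p = 0.00016). Eno2, the neuronal enolase, fell by 0.71 ± 0.13 in basal cells (adjusted p = 0.0047), and Slc2a6, a hexose carrier, by 0.48 ± 0.12 (adjusted p = 0.032), which was lost without any 1 of the 4 basal arrays or either HRG 24 h array (adjusted p = 0.054 to 0.18). With HRG at 6 h, 0 of the 31 passed in either direction (0 higher and 2 lower unadjusted). At 24 h Ldhb rose by 0.61 ± 0.10 (adjusted p = 0.0060) and Adpgk, an ADP-dependent glucokinase, fell by 0.42 ± 0.10 (adjusted p = 0.047). Ldhb was not called at 24 h without basal 24 h replicate 2 or HRG 24 h replicate 1 (adjusted p = 0.070 and 0.072), and Adpgk without basal 24 h replicate 2 or any 1 of the 4 HRG arrays (adjusted p = 0.081 to 0.37). Adpgk was also lost with median centring (adjusted p = 0.084) and with every array row tested.

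Of 19 measured genes of glycogen metabolism other than Gys1, 4 rose and 2 fell with time in basal cells (8 and 2 unadjusted), and 3 rose and 1 fell with HRG (4 and 2 unadjusted), with medians of 0.20 and 0.02. Pygl, the liver-type glycogen phosphorylase, which releases glucose from glycogen, read 9.82 and 9.69 in basal and 10.11 and 10.18 in HRG-treated cells at 6 h, then 11.26 and 11.15 in basal and 11.45 and 11.48 in HRG-treated cells at 24 h. Its 4 groups did not overlap, and it rose 2.73-fold (1.45 ± 0.096, adjusted p = 7.0e-06) and 2.50-fold (1.32 ± 0.096, adjusted p = 1.5e-05). Pgm1, phosphoglucomutase, which links glycogen to glycolysis, rose by 1.35 ± 0.095 in basal cells (adjusted p = 9.6e-06) and by 0.58 ± 0.095 with HRG (adjusted p = 0.0030). Gyg, glycogenin, the primer of glycogen synthesis, fell in basal cells by 0.50 ± 0.11 (adjusted p = 0.016), and Phkg2, a phosphorylase kinase subunit, by 0.40 ± 0.11 (adjusted p = 0.048). The falls of Gyg and Phkg2 were lost without basal 6 h replicate 1 or either basal 24 h array, and without any 1 of the 4 basal arrays or either HRG 6 h array, at adjusted p = 0.060 to 0.12 and 0.054 to 0.20.

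With HRG, 1 glycogen gene rose and 0 fell at 6 h (6 and 1 unadjusted), and 0 rose and 1 fell at 24 h (1 and 2 unadjusted). At 6 h Pgm1 rose 1.44-fold with HRG (0.52 ± 0.095, adjusted p = 0.024), with HRG arrays at 9.75 and 9.77 against 9.31 and 9.17, a call lost without any 1 of the 4 arrays at 6 h (adjusted p = 0.050 to 0.22). At 24 h Gbe1, the branching enzyme, fell 1.78-fold with HRG (-0.83 ± 0.095, adjusted p = 0.00051), and was called in every alternative (largest adjusted p = 0.014). Gbe1 read 12.15 and 12.10 in basal and 12.02 and 12.09 in HRG-treated cells at 6 h, then 12.42 and 12.56 in basal and 11.63 and 11.70 in HRG-treated cells at 24 h. It was highest in basal and lowest in HRG-treated cells at 24 h, and its time difference was 0.37 ± 0.095 in basal cells (adjusted p = 0.030) and -0.39 ± 0.095 with HRG (adjusted p = 0.028). The time call of Gbe1 in basal cells was lost without any 1 of the 4 basal arrays or either HRG 6 h array (adjusted p = 0.051 to 0.19), and that with HRG without any 1 of the 4 HRG arrays (adjusted p = 0.10 to 0.19).

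Among 14 genes of mitophagy and mTORC1 control, to which Bnip3 and Ddit4 are linked, 2 rose and 2 fell with time in basal cells. With HRG over time 2 rose and 1 fell, and the shares of all genes were 3.80% and 5.48%, and 4.41% and 2.87%. Unadjusted, the counts were 2 and 3 in basal cells (9.23% and 11.1% of all genes) and 5 and 1 with HRG (9.67% and 9.22%). The HRG comparison called 0 higher and 1 lower at 6 h (0.431% and 0.818% of all genes), and 2 higher and 1 lower at 24 h (2.43% and 1.05%). Unadjusted, it gave 2 and 4 at 6 h (4.73% and 6.27%) and 2 and 2 at 24 h (7.48% and 5.22%). Sesn2, a stress-induced inhibitor of mTORC1 signalling, fell with HRG at 6 h by 0.94 ± 0.16 (1.91-fold lower, adjusted p = 0.016) and with time in basal cells by 0.96 ± 0.16 (adjusted p = 0.0020). It read 10.26 and 10.11 on the basal 6 h arrays and between 8.99 and 9.50 on the other 6, as with Ndrg1 higher in the basal 6 h group than anywhere else, and both of its falls rest on those 2 arrays. The call of Sesn2 at 6 h was lost without basal 6 h replicate 1 or HRG 6 h replicate 2 (adjusted p = 0.091 and 0.15). Sesn1 rose with HRG at 24 h by 0.91 ± 0.11 (1.88-fold, adjusted p = 0.00051), called in every alternative, and Deptor, an mTOR-binding inhibitor, rose by 0.55 ± 0.12 (adjusted p = 0.030). Sqstm1, the autophagy receptor p62, fell at 24 h by 0.43 ± 0.093 (adjusted p = 0.024). At 24 h Deptor was not called without either basal 24 h array or HRG 24 h replicate 1 (adjusted p = 0.12 to 0.35), and Sqstm1 without basal 24 h replicate 2 or either HRG 24 h array (adjusted p = 0.099 to 0.22). Over time, Deptor rose by 0.91 ± 0.12 in basal cells (adjusted p = 0.00072) and 0.96 ± 0.12 with HRG (adjusted p = 0.00064), while Ddit4l, a relative of Ddit4, rose in basal cells by 0.73 ± 0.17 (adjusted p = 0.016) and was not called without basal 6 h replicate 1 or basal 24 h replicate 2 (adjusted p = 0.12 and 0.11). Sesn3 fell by 0.41 ± 0.10 in basal cells (adjusted p = 0.023), a call lost without basal 6 h replicate 2 or basal 24 h replicate 2 (adjusted p = 0.10 and 0.16). With HRG, Sesn1 rose with time by 0.83 ± 0.11 (adjusted p = 0.00054) and Sqstm1 fell by 0.34 ± 0.093 (adjusted p = 0.046), the latter lost without any 1 of the 4 HRG arrays (adjusted p = 0.15 to 0.23), with median centring and with every array row tested.

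Some markers of other cells moved over time as well. The shares of all genes were 3.80% higher and 5.48% lower in basal cells and 4.41% and 2.87% with HRG. In lists this short, a count of 0 or 1 says nothing particular about a cell type. In basal cells 7 of the 7 measured B cell markers fell between 6 h and 24 h, with a median of -0.83. The log2 of their summed levels went from 12.12 to 12.16 at 6 h to 11.17 to 11.54 at 24 h. In HRG-treated cells 0 of the 7 rose or fell, with a median of 0.14. There the log2 of the summed levels was 11.75 to 11.77 at 6 h and 11.80 to 12.07 at 24 h. The 21 members called higher in both arms include Aldoc and Pdk1, and the part of these cells in their rise was not tested. Of 10 macrophage markers, 2 rose and 2 fell in basal cells and 3 rose and 0 fell with HRG. The log2 of their summed levels at the 2 times was 15.83 to 15.89 and 15.97 to 15.98 in basal cells. In HRG-treated cells it was 15.88 to 15.96 and 16.14. Of 6 mast cell markers, 2 fell in basal cells and 2 rose with HRG, and of 8 T or NK cell markers, 1 fell in basal cells and 2 rose with HRG. Of 7 neutrophil markers 1 rose with HRG, of 6 dendritic cell markers 1 rose and 1 fell in basal cells and 1 rose with HRG, of 3 measured red blood cell markers 1 fell in basal cells, and of 9 mesothelial and fibroblast markers 0 passed. With HRG at 24 h, 4 of 7 B cell, 2 of 6 mast cell and 2 of 10 macrophage markers rose beside Aldoc (2.43% of all genes). At 6 h 1 B cell and 1 T or NK cell marker fell (0.818% of all genes) and 1 macrophage marker rose (0.431%) beside Ndrg1. The part of these cells in the calls of Aldoc and Ndrg1 was not tested. For the HRG effect at 24 h minus that at 6 h, 5 of 7 B cell markers were called higher (median 0.87, lowest 0.69), as were 1 of 8 T or NK cell, 1 of 6 mast cell and 1 of 3 red blood cell markers, against 1.02% of all genes.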

How the data were processed

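The cells were mouse peritoneal macrophages in 4 groups of 2 arrays. The authors deposited 1 table of log2 expression values with 28853 array rows. It was made with Affymetrix Expression Console by RMA and limma was also used, per the submitters' processing notes. For tool versions and the genome build: not given in the sources used here. RMA forces arrays to 1 distribution, so a shift shared by all genes would not show.

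Of the rows, 21789 carried 1 platform symbol, 1621 several and 5443 none. The platform annotation can be old, and 21698 rows matched RefSeq by gene ID, with 0 symbols changed. For each of 19938 genes the row with the highest mean was kept. A model with 1 mean per group was fitted to all 8 arrays with limma 3.58.1 in R 4.3.3, and 5 contrasts were tested by lmFit and eBayes with Benjamini-Hochberg adjustment over all genes (residual df 4, prior df 7.81). Members past the threshold were named with values, as were in each contrast the unpassed ones with the 2 largest positive and 2 largest negative differences, the paralogue pairs, and pathway genes past the threshold by size of difference (up to 4 a list with HRG, 2 a direction with time). Vegfa was named outside that rule. The members, marker lists and pathway lists were chosen with earlier results of these data known. Tested on simulated data of 19938 genes, the script recovered 63.8% of 1.5-fold and 98.2% of 2-fold changes with time in basal cells. For the HRG effect at 24 h minus 6 h it recovered 15.4% and 82.4%. Each simulation changed few genes, in 1 group, with noise independent between arrays. The rates for the data, where more genes were called with time, may differ. The main model did not pair samples by replicate number. Alternatives covered normalization, the model, filters, the choice of row, the replicate number as a block, a minimum change and each array left out. The number of arrays limits the precision.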

Additional observations from a re-analysis of the deposited data

Results flagged for a closer look

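For 4 pathway genes outside the member list, the effect of HRG differed between 6 h and 24 h by the test of that difference itself (limma, adjusted over all genes). For Cxcr4 the effect at 24 h minus that at 6 h was 1.01 ± 0.13 on the log2 scale (SE, adjusted p = 0.0042), from -0.01 at 6 h to 1.00 at 24 h, and it passed in every alternative (largest adjusted p = 0.028). In the same contrast 5 of 7 B cell markers were called higher (median 0.87, lowest 0.69), with 1 T or NK cell, 1 mast cell and 1 red blood cell marker, and their part in the differences of Cxcr4 and Bhlhe40 was not tested. For Bhlhe40, a circadian transcription factor and HIF target, it was 0.88 ± 0.17 (adjusted p = 0.025), with effects of -0.43 and 0.44. Bhlhe40 read 9.56 and 9.31 in basal and 9.04 and 8.96 in HRG-treated cells at 6 h, then 9.37 and 9.23 in basal and 9.86 and 9.63 in HRG-treated cells at 24 h, so HRG arrays were lower at 6 h and higher at 24 h. For Gbe1 it was -0.76 ± 0.13 (adjusted p = 0.019), and for Pgm1 -0.77 ± 0.13 (adjusted p = 0.017), with effects of 0.52 at 6 h and -0.25 at 24 h.

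The call of Bhlhe40 was lost without basal 6 h replicate 1, basal 24 h replicate 2, HRG 24 h replicate 1 or either HRG 6 h array (adjusted p = 0.065 to 0.15), and with every array row tested (adjusted p = 0.055). Those of Gbe1 and Pgm1 were lost without basal 24 h replicate 2 or any 1 of the 4 HRG arrays (adjusted p = 0.051 to 0.11 and 0.061 to 0.088).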

How the results depend on the processing

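No result reversed under the alternatives run. With a trend and robust variances, 2 members were higher and 2 lower with HRG at 6 h, against 180 and 312 of all genes. At 24 h 2 were higher and 2 lower, against 670 and 304 of all genes. In that setting 1 member had a positive difference between times, and the share of all genes also exceeded the 1.02% of the main model. Renewed quantile normalization made 1 member higher at 6 h (164 of all genes). With each array's lower quartile entered as a covariate, 1 member was higher at 6 h, 2 were lower at 24 h and 1 had a positive difference between times. Over all genes these counts were 228, 453 and 304. Members with a positive difference between times also numbered 1 with arrays centred on their medians (243 of all genes). The same count of 1 came with the dimmest 30% of genes dropped (276) and with the mean of all array rows of a gene (210). With every array row tested, 0 members were lower at 6 h (76 of all genes) and 0 fell with time in basal cells (936). Against a minimum change of 1.2-fold, 0 members were lower with HRG at 6 h, 0 higher at 24 h and 0 fell with time in basal cells (17, 117 and 348 of all genes). In that test 14 rose in basal cells (179 of all genes), 12 with HRG (235) and 11 in both. The share of member promoters with ACGTG alone was 56.5%. Single calls were lost as well. With HRG over time, Pgam1 and Ldha were lost with renewed quantile normalization (adjusted p = 0.063), median centring (0.071 to 0.077) and every array row tested (0.056 to 0.059). In basal cells Aldoa was lost with median centring (0.073), and Pfkp, Aldoa, Pgk1 and Ldha with only the arrays compared in the fit (0.057 to 0.11). In that fit 22 members rose in basal cells (514 of all genes) and 24 with HRG (1161). The cause was not tested. With 1 array left out, 0 to 1 members were lower with HRG at 6 h, 0 to 1 higher and 0 to 1 lower at 24 h, and 0 to 1 had a negative difference between times. With time, 20 to 25 rose and 0 to 1 fell in basal cells, 15 to 23 rose with HRG and 14 to 20 rose in both. Leaving out basal 24 h replicate 1 made P4ha2 lower with HRG at 24 h and the difference between times negative for Ankrd37. With the other array row of Hk1, chosen after seeing the data, 27 rose in basal cells and 22 with HRG. Deviations of same-numbered arrays from their group means did not all go the same way. They correlated at 0.24 to 0.41 among basal 6 h, HRG 6 h and HRG 24 h. Between basal 24 h and each of these groups the correlation was -0.33 to -0.20. A block by replicate number does not follow that pattern, and its source was not tested. With the replicate number as a block, 26 rose and 1 fell in basal cells and 21 rose with HRG (751, 1109 and 863 of all genes). With HRG Ldha was lost there (adjusted p = 0.056), and no other call of a member changed. Among the other pathway genes, the block ended the calls of Adpgk with HRG at 24 h (adjusted p = 0.053) and Sqstm1 with HRG over time (0.058). With 2 arrays a group, standard errors were 0.090 to 0.16 for the members' HRG and time differences, and 63.4% to 67.4% of 1.5-fold changes were recovered in simulated data of these 4 comparisons.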
